A study of Homo sapiens with 4 samples.

Results

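The glycolytic enzymes HK2, PFKP, ALDOC and ENO2 and 1 subunit of the respiratory chain, SDHD, were examined in a comparison of PRMT1 knockdown with control in pancreatic cancer cells. The 5 genes were chosen by name, with their direction and p-values in this comparison already known, out of 858 genes in the authors' deposited table. All 5 had a lower transcript abundance in the knockdown in the authors' deposited table, by between 13.3% for SDHD and 69.9% for ENO2. No gene of the 5 passed correction for multiple testing, so the differences are given as a description.

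RNA sequencing was carried out on 4 samples of MiaPaca-2, an established human pancreatic cancer line grown in medium with fetal bovine and horse serum. Short hairpin RNA against PRMT1 (shPRMT1) was carried by 2 samples and non-targeting hairpin RNA (shNTC) by the other 2. PRMT1 is the enzyme that makes most of the asymmetric dimethylarginine in cells. The labels do not say how many hairpins against PRMT1 were used, and they name no rescue and no separate cultures. The spread behind a p-value may therefore be technical, and effects of a hairpin on other transcripts cannot be told apart from loss of PRMT1. Per-sample values were not analysed here. The sequencing depth, the level of each transcript and the replicate spread are therefore unknown, and the labelled cell type could not be checked against its markers.

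The table gives a ratio of both groups per gene without naming the numerator. For PRMT1 (ENSG00000126457.16), the authors' deposited table gives 0.356 (log2 ratio −1.49, p = 0.0156, the authors' adjusted p = 0.411). For that reason shPRMT1 was taken as the numerator, and this value is no check of the labels. Under the opposite reading every direction below would turn.

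Glycolysis splits glucose into pyruvate and yields a little ATP without oxygen. Hexokinases trap glucose in the cell by phosphorylating it, phosphofructokinase commits the sugar to breakdown, aldolase cuts it into triose phosphates and enolase makes the last high-energy intermediate before pyruvate. Each step is carried out by isozymes from separate genes: HK2 and PFKP are the forms many tumours express strongly, and ALDOC and ENO2 are best known from the brain, ENO2 also as a marker of neuroendocrine cells. Succinate dehydrogenase, or complex II, oxidises succinate in the tricarboxylic acid cycle and passes the electrons to ubiquinone. SDHD is one of its membrane anchors, and inherited loss of it causes paraganglioma, in which succinate builds up and the hypoxia-inducible factors (HIF) are stabilised. HIF in turn is a well-known activator of many glycolytic genes through a short core element, ACGTG or GCGTG.

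The stretches before the start sites are shown because the 5 genes differ in how many copies they hold of the HIF core element and of the E-box, a related element bound by MYC and other factors. RefSeq (GRCh38.p14) lists 9 starts for the 5 genes, 1 each for ENO2, ALDOC and SDHD, 2 for HK2 and 4 for PFKP. The 250 bases before the most upstream start of each gene are printed 5′ to 3′ on the gene's strand, together with the second HK2 window, which held the most matches. Capitals mark ACGTG or GCGTG on either strand, so that a match on the other strand reads CACGT or CACGC. The windows lie at chr12:6914330-6914579 (plus strand) for ENO2, chr17:28576896-28577145 (minus strand) for ALDOC, chr2:74833877-74834126 and chr2:74834920-74835169 (plus strand) for HK2, chr10:3067720-3067969 (plus strand) for PFKP and chr11:112086623-112086872 (plus strand) for SDHD.
ENO2: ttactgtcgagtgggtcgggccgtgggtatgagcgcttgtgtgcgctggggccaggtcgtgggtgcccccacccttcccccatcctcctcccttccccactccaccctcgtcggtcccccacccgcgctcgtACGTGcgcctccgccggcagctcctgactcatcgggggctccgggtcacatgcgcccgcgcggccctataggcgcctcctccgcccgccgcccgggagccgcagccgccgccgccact
ALDOC: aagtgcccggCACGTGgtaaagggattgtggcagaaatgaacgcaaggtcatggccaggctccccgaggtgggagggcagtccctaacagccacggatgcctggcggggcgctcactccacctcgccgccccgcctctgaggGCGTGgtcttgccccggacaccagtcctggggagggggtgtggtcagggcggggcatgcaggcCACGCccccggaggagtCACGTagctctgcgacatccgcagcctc
HK2 first start: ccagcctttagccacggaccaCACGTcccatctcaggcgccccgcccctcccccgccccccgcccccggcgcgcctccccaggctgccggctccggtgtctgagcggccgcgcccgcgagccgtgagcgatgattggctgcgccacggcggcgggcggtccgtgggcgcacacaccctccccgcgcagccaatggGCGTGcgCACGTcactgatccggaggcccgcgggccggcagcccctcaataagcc
HK2 second start: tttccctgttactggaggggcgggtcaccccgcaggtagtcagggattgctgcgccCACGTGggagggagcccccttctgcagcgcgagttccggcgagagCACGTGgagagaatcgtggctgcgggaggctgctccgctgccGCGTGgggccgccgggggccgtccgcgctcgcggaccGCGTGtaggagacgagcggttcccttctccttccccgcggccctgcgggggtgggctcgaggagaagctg
PFKP first start: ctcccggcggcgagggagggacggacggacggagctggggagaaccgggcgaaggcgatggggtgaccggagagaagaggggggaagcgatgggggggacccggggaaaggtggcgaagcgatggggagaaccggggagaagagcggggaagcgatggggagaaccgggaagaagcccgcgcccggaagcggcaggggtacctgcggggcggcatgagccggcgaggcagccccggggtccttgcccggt
SDHD: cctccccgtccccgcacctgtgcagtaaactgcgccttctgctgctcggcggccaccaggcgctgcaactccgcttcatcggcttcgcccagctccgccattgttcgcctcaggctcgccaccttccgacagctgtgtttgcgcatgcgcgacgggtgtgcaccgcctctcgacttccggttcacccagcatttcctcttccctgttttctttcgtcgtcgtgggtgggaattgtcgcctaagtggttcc

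ENO2 had 1 HIF core match, whose first base lay at position −118 from the start. ALDOC had 5 matches, 2 of them on opposite strands of 1 E-box (CACGTG) at −240. At HK2 the first window held 3 matches, with 2 close together at −55 and −48, and the second window held 6, of which 4 came from a pair of E-boxes at −194 and −149. The first 2 of the 4 PFKP windows held none, the third held 1 at −139 and the fourth, 36639 bases after the first, held 3. The SDHD window held none, which says only that these letters are not in this window.

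Such short elements are common. At least 1 HIF core match was found in 6 of the 9 windows and in 43.2% of all 35116 RefSeq windows of the same length. Windows with 3 or more matches made up 7.76% of all windows, and among the genes here ALDOC, both HK2 windows and the fourth PFKP window belonged to them. The E-box stood in 2 of the 9 windows, at ALDOC and at the second HK2 start, against 6.34% of all windows. The GC box GGGCGG, the SP1 element, stood in 6 of 9 windows against 42.6%, the CCAAT element of NF-Y in 1 of 9, the first HK2 window, against 32.0%, and TATAAA in 0 of 9 against 10.7%. The share of G and C ranged from 54.0% at the fourth PFKP start to 81.6% at the third, with a median of 58.0% over all windows. The part of base composition in these matches was not tested.

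**Figure D1:**
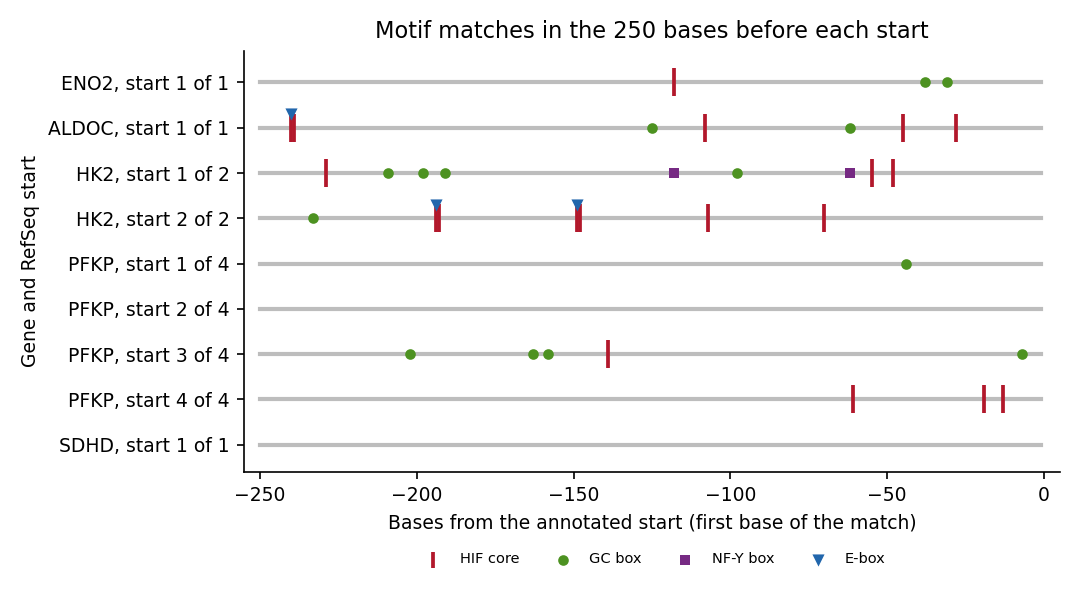
Positions of motif matches in the 250 bases before each of the 9 RefSeq starts, in bases from the start (x axis), 1 line per start (y axis). Red ticks are HIF core matches on either strand, blue triangles E-boxes, green dots GC boxes and purple squares NF-Y elements; the SDHD window and the second PFKP window are empty of all of these.

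HK2 (ENSG00000159399.5), the hexokinase that binds to mitochondria and opens glycolysis, had a ratio of 0.747 by the authors' deposited table, a level 25.3% lower in shPRMT1 (log2 ratio −0.42, p = 0.00589, the authors' adjusted p = 0.364). By size it was the 145th of the 501 lower genes in the authors' deposited table, and by p the 122nd of all 858. HK2 is thus a moderate difference with one of the smaller p-values of the list. Its coding transcripts have a near-copy in the genome, the processed pseudogene HK2P1. Of the stretches of 50 bases in HK2 coding transcripts, 8.33% also occur in HK2P1 in GENCODE 29, and how the authors' counting divided such reads is not given in the sources used here.

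PFKP (ENSG00000067057.12), the platelet-type phosphofructokinase, had a ratio of 0.842 by the authors' deposited table, 15.8% lower (log2 ratio −0.25, p = 0.0349, the authors' adjusted p = 0.432). Its p was the largest among the 5 genes, with 68.8% of the entries of the authors' deposited table at or below it. At least as large a difference was listed for 58.9% of the lower genes, PFKP being 295th of 501 by size in the authors' deposited table. A non-coding gene annotated on the same strand, AL451164.3, shares 2.48% of the exon bases of PFKP.

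ALDOC (ENSG00000109107.9), aldolase C, had a ratio of 0.520 by the authors' deposited table, 48.0% lower (log2 ratio −0.94, p = 0.0308, the authors' adjusted p = 0.432). This placed it 29th of the 501 lower genes by size in the authors' deposited table, while its p ranked 520th of 858. None of its stretches of 50 bases occurs in a transcript of another gene, aldolases A and B included. On the opposite strand, exons of AC005726.4 cover 10.1% of the exon bases of ALDOC. Whether the counting used strand is not given in the sources used here. It is therefore unknown whether reads over these shared bases were told apart.

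ENO2 (ENSG00000111674.4), gamma enolase, had the lowest of the 5 ratios, 0.301 by the authors' deposited table, a 3.33-fold lower level (log2 ratio −1.73, p = 0.0263, the authors' adjusted p = 0.432). It stood 6th of the 501 lower genes by size in the authors' deposited table, and PRMT1, the target of the hairpin, stood 12th. The p of ENO2 was close to the median over the authors' deposited table, 0.0250. Just 1 stretch of 50 bases is shared with ENO1, the enolase that most cells use, and no exon overlaps another gene. None of 12 neuroendocrine markers, such as CHGA, SYP and INSM1, was listed, beside 11.2% of all genes tested. How many of the 12 were tested is unknown, so nothing is read from their absence.

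SDHD (ENSG00000204370.4) had the smallest difference of the 5 genes, a ratio of 0.867 by the authors' deposited table, or 13.3% lower (log2 ratio −0.21). It also had the smallest p, 0.00173 (the authors' adjusted p = 0.308), the 40th lowest of all 858 in the authors' deposited table. By size it ranked 344th of 501 in the authors' deposited table. SDHD is the member whose reads are most easily shared: 16.4% of its stretches of 50 bases occur in transcripts of 26 other genes. Among these are the overlapping gene AP002884.3 (11.1%) and the processed pseudogenes AL031284.1 (7.90%) and SDHDP6 (7.16%). TIMM8B, an import chaperone gene on the opposite strand, overlaps 26 exon bases of SDHD. No gene that overlaps a member or shares such stretches with it was itself listed. The value of SDHD is uncertain where the counting could split such reads, and their part in it was not tested.

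**Figure D2:**
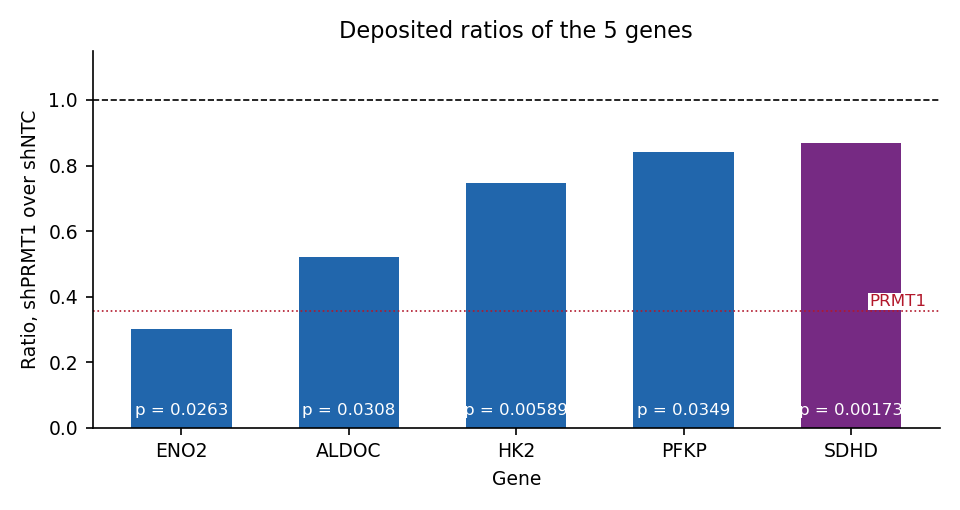
Ratio of shPRMT1 over shNTC (y axis, linear, from 0) for the 5 genes in the authors' deposited table; the dashed line marks no difference, the dotted red line PRMT1 at 0.356, and the unadjusted p stands in each bar. ENO2 lies below PRMT1 at 0.301 and SDHD, in purple, is nearest to 1 at 0.867; no error bars are drawn because single samples were not analysed.

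Size and p did not rank the 5 genes alike. From largest to smallest difference the order was ENO2, ALDOC, HK2, PFKP and SDHD, and from smallest to largest p it was SDHD, HK2, ENO2, ALDOC and PFKP in the authors' deposited table. ENO2 and ALDOC, with the largest differences, and also PFKP had p-values above the median of the authors' deposited table, 0.0250. Without sample values it cannot be said whether neighbours in the order of size differ from each other.

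At an adjusted p under 0.05, 0 of the 5 genes were called, against 1 of 7640 genes tested (0.0131%); the tool behind these p-values is not given in the sources used here. All 5 had an unadjusted p under 0.05, which is a condition for being in the authors' deposited table and holds for 11.2% of the genes tested, or 6.56% when only lower genes are counted. At p under 0.01 were 2 of the 5, HK2 and SDHD, beside 22.3% of all entries of the authors' deposited table and 2.5% of all genes tested. The 5 of 5 listed lower stand beside 58.4% of all entries of the authors' deposited table, and nothing is read from that since the direction was known when the genes were chosen. ENO2 was the 1 member with an absolute log2 ratio of at least 1, beside 6.76% of all entries of the authors' deposited table. The median log2 ratio of the 5 genes was −0.42, that of all entries in the authors' deposited table −0.12 and that of the lower genes −0.28.

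**Figure D3:**
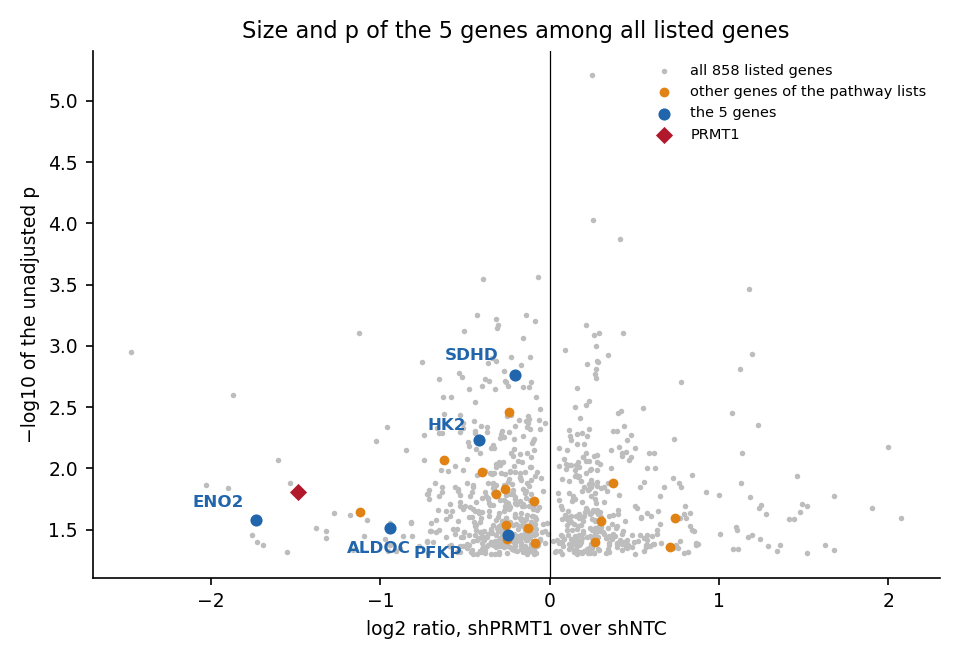
Log2 ratio of shPRMT1 over shNTC (x axis) against −log10 of the unadjusted p (y axis) for the 858 genes of the authors' deposited table. Blue points are the 5 genes, orange points other genes of the pathway lists and the red diamond PRMT1; ENO2 and ALDOC lie far left at low height, and SDHD lies near 0 and highest of the 5.

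Around these enzymes, glycolysis was covered in part. Among 29 genes for glucose entry and the glycolytic steps, the authors' deposited table holds 5, the 4 enzymes above and HKDC1. That is 17.2%, beside 11.2% of all genes tested. The presence of the 4 enzymes was fixed by how they were chosen, so nothing is read from this share. HKDC1, a further member of the hexokinase family, was listed higher, with a ratio of 1.67 by the authors' deposited table (log2 ratio 0.74, p = 0.0256). The hexokinases therefore lay on both sides, HK2 lower and HKDC1 higher, while HK1 and HK3 were not among the listed genes. Of 11 steps, glucose transport included, 4 had a listed gene and 7 had none in the authors' deposited table. These 4 are the steps of the 4 chosen enzymes, so nothing is read from this count either. For each of phosphofructokinase, aldolase and enolase, 1 of 3 isozymes was listed, and the widely used forms PFKL, ALDOA and ENO1 were not. Neither GAPDH, PGK1, PKM nor the transporter SLC2A1 was listed in the authors' deposited table. Genes outside the table either missed the unadjusted threshold of 0.05 or were never tested, and both cases look the same here. None of the 5 regulators that set the allosteric activator of phosphofructokinase, among them PFKFB3 and TIGAR, and none of 7 gluconeogenesis genes was listed. With 11.2% of all genes tested listed, nothing is read from such short lists.

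Of 14 genes for the branches that leave glycolysis, the pentose phosphate pathway and glycogen, 4 were listed, all lower. Over all features, 11.2% of genes tested are listed and 58.4% of the entries of the authors' deposited table are lower, so nothing particular to these branches is read from 4 genes. PGLS, which opens the lactone of the oxidative branch, had a log2 ratio of −0.40 (p = 0.0108) in the authors' deposited table. The sugar phosphate isomerase RPIA was at −0.26 (p = 0.0288) and the epimerase RPE at −0.24 (p = 0.00343) in the authors' deposited table. GBE1, the glycogen branching enzyme, was at −0.32 (p = 0.0161) in the authors' deposited table. These 4 values span −0.40 to −0.24, beside −0.42 for HK2 and −0.25 for PFKP. PGD, TKT and TALDO1 were not listed.

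After pyruvate, listed genes lay on both sides. Of 20 genes for lactate and pyruvate, PDP1, the phosphatase that switches pyruvate dehydrogenase on, was listed higher by the authors' deposited table, at 0.71 (p = 0.0435). A second listed gene was BSG, the chaperone of lactate transporters, at −0.09 (p = 0.0184) in the authors' deposited table, a sign that turned when all log2 ratios were raised by 0.1 or centred on the table's median. LDHA and the lactate exporter SLC16A3 were not listed. Of 17 tricarboxylic acid cycle genes outside complex II, citrate synthase CS was listed higher at 0.30 (p = 0.0269) and OGDH, of the oxoglutarate dehydrogenase complex, at 0.27 (p = 0.0396) in the authors' deposited table. The listed shares, 10.0% of the 20 genes and 11.8% of the 17, stand beside 11.2% of all genes tested. Nothing particular to these steps is read from so few genes.

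For complex II, 1 of the 4 subunits, SDHD, was listed; the catalytic subunits SDHA and SDHB and the other anchor SDHC were not. Among the 4 assembly factors SDHAF1, which helps to insert iron-sulfur clusters into SDHB, was listed higher, at 0.37 (p = 0.0133) in the authors' deposited table. Complex II thus had 1 subunit listed lower and 1 assembly factor listed higher. Of 77 nuclear genes for the other respiratory complexes, 3 were listed in the authors' deposited table, or 3.90%, beside 11.2% of all genes tested; how many of the 77 were tested is unknown. These were the complex I subunits NDUFS8, which carries iron-sulfur clusters, at −0.25 (p = 0.0375) and NDUFC2 at −0.13 (p = 0.0309) in the authors' deposited table. The third was the ATP synthase stalk subunit ATP5PB, named ATP5F1 in the authors' deposited table, at −0.09 (p = 0.0404), a sign that turned under both shifts of scale. None of 10 genes of complex III and cytochrome c and none of 14 of complex IV was listed.

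Of 20 genes known to respond to low oxygen outside glycolysis, 3 were listed, all lower, beside 11.2% of all genes tested and 58.4% lower over all entries of the authors' deposited table. Nothing particular to low oxygen is read from 3 genes. ANGPTL4, a secreted inhibitor of lipoprotein lipase, had a ratio of 0.460 by the authors' deposited table (log2 ratio −1.12, p = 0.0227). BNIP3L, a receptor for the removal of mitochondria, was at −0.62 (p = 0.00858) in the authors' deposited table. The third was the endoplasmic reticulum oxidase ERO1A, named ERO1L in the authors' deposited table, at −0.26 (p = 0.0148). The remaining 17 genes, CA9, VEGFA, ADM and NDRG1 among them, were not listed, nor was any of 9 genes of the HIF pathway itself, such as HIF1A, EPAS1, VHL and EGLN3.

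Leaving out the 5 genes, whose presence was fixed by how they were chosen, 16 of the 201 genes of the 13 pathway lists (7.96%) were in the authors' deposited table. The table holds 11.2% of the genes tested, but how many of the 201 were tested is unknown. The lists were also chosen with earlier results of these data known, so neither this share nor the directions are read as a result. Of the 16, 11 were listed lower and 5 higher, beside 58.4% lower over all entries of the authors' deposited table. With all log2 ratios raised by 0.1 or centred on the table's median, BSG and ATP5PB turned and the split was 9 lower and 7 higher. Raised by 0.1, 53.1% of all entries of the authors' deposited table were lower, and centring splits all entries evenly by construction. None of the 16 had an adjusted p under 0.05.

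**Figure D4:**
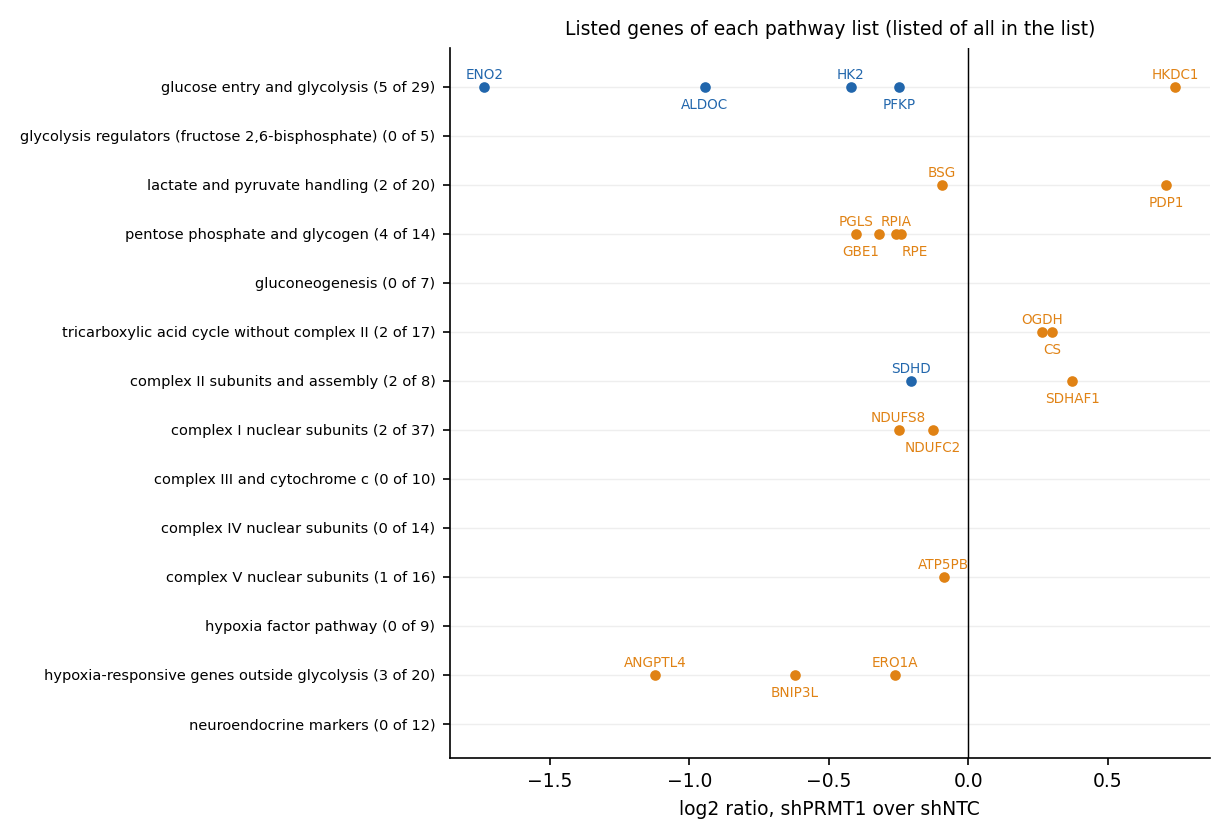
Log2 ratio of shPRMT1 over shNTC (x axis) of every listed gene in each pathway list (y axis, with the number listed of all in the list), from the authors' deposited table. Blue points are the 5 genes and orange points other genes; HKDC1, PDP1, CS, OGDH and SDHAF1 lie right of 0, and BSG and ATP5PB lie close enough to 0 to turn sign under a shift of 0.1.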

How the data were processed

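Total RNA of 4 MiaPaca-2 samples was sequenced, and groups were taken from the titles in the labels. The labels' protocol names a total RNA library kit, beside a text on chromatin immunoprecipitation; the molecule given is total RNA. The submitters' processing notes name edgeR 3.36.0, StringTie 2.2.1, HISAT2 2.2.1, Trim Galore 0.6.7, deepTools and the build hg19, without their roles. Per the file headers, the authors deposited for each gene a p-value, a q-value (called adjusted p here), a ratio of the groups (fold change) and the log2 of that ratio. For the test, the normalization and the filters, the sources used here give nothing. The table holds only genes with p under 0.05, as checked on its values.

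The authors' comparison covered all genes tested, but values were available here only for the 858 with p under 0.05. Ranks, medians and shares of entries refer to these 858. No test was run on samples. The planned count model could not be used, because the table holds no counts, and values were copied instead. The total of 7640 genes tested was worked out from p, rank and adjusted p within a tolerance of 0.01 at 52 of 52 steps; the method recovered the number in 50 of 50 simulated tables. The 5 genes and the pathway lists were chosen with earlier results of these data known. Named genes are the 5 genes, PRMT1 and each list gene in the table, matched by Ensembl identifier (206 of 206 symbols had one). Promoter windows came from RefSeq, and shared stretches of 50 bases and exon overlaps from GENCODE 29, on another build than the authors'. Alternatives were other thresholds of p and size, a shift of all log2 values by 0.1 and centring on the table's median. Some genes are not reported here. Calculations used Python 3.11.15, numpy 2.4.6, pandas 2.3.3 and matplotlib 3.10.9.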

Additional observations from a re-analysis of the deposited data

How the results depend on the processing

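The count of members called in the authors' deposited table was 0 at an adjusted p under 0.05 and under 0.1, and 5 at under 0.5, a threshold that all 858 entries pass since their largest adjusted p is 0.442. At an unadjusted p under 0.01 it was 2, at under 0.05 it was 5 and at under 0.001 it was 0. With an absolute log2 ratio of at least 0.5 in place of 1, 2 members passed instead of 1. At 1, 6.76% of all entries passed. The shares of all entries at a log2 ratio of 0.5, at p under 0.001 and at an adjusted p under 0.1 were not worked out. Nothing is read from those counts. Of the 21 genes of the pathway lists in the authors' deposited table, the 5 members included, 4 had p under 0.01. Over all entries the share with p under 0.01 was 22.3%. These thresholds themselves set the counts. All 5 members were lower in the authors' deposited table as deposited, with every log2 ratio raised by 0.1 and when centred on the table's median, which moves values by 0.12. The smallest of their differences, −0.21 for SDHD, is larger than either shift, so this outcome was fixed by the values. SDHD moved from −0.21 to −0.11 and −0.08 and PFKP from −0.25 to −0.15 and −0.12. Over the 22 named genes, 40 of 44 shifted values kept their direction. BSG turned to 0.0064 when raised and 0.031 when centred, and ATP5F1 to 0.013 and 0.038, by construction of the shift. No paired analysis was possible because the table holds no columns of single samples. For the same reason leaving out a replicate, other size factors and a filter on low counts were not run. The depth behind each ratio is unknown.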

Other observations

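Some 4 further genes of sugar and mitochondrial metabolism stood in the authors' deposited table, picked after their values were seen and outside the pathway lists. GALK2, a kinase for N-acetylgalactosamine, had a log2 ratio of −0.24 (p = 0.0214) in the authors' deposited table. GOT1, the cytosolic aminotransferase of the malate-aspartate shuttle that carries reducing power from glycolysis to mitochondria, had −0.52 (p = 0.0362) in the authors' deposited table. Among assembly factors of the respiratory chain, NDUFAF4 of complex I was listed higher at 0.19 (p = 0.00800) and COA4 of complex IV lower at −0.26 (p = 0.0374) in the authors' deposited table. None of the 4 had an adjusted p under 0.05.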
